A study of Mus musculus with 19 samples.

Results

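The transforming growth factor-β (TGF-β) genes described here were the ligands Tgfb1, Tgfb2 and Tgfb3, the receptors Tgfbr1 and Tgfbr2, and the latent TGF-β binding proteins Ltbp1, Ltbp2, Ltbp3 and Ltbp4. They were picked out by gene name and make up 9 of the 55414 genes in the count files. All 9 had enough reads to be among the 17617 genes tested.

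TGF-β is secreted in a latent form, in which the ligand stays wrapped in its own propeptide and is usually bound to a latent TGF-β binding protein that anchors it in the extracellular matrix. Integrins and proteases release the ligand, which binds the type II receptor encoded by Tgfbr2. This receptor then activates the type I receptor encoded by Tgfbr1, which phosphorylates SMAD proteins that enter the nucleus. In the aortic wall, smooth muscle cells and fibroblasts deposit the elastic matrix that holds the latent complex, and mutations in TGF-β ligands and receptors cause inherited aortic disease in humans.

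RNA was measured by bulk sequencing of abdominal aortas in 19 libraries, 1 per mouse, from 7 D-3 IR mice, 7 D+1 IR mice and 5 control mice. All mice were male Apoe-/- mice on a C57Bl/6J background, 8 to 10 weeks old at the start, and all, controls included, received angiotensin II (AngII) from osmotic pumps, a treatment that gives rise to abdominal aortic aneurysm. D-3 IR mice had a single total-body irradiation of 1 Gy 3 days before AngII infusion began, and D+1 IR mice had the same dose 1 day after it began. Control mice were not irradiated but received the same anesthesia. Mice of the study were killed after 7 days of AngII, the time of its tissue analyses, or after 28 days to follow survival and disease, and neither the labels nor the methods give the day for the sequenced aortas. Mice infused without AngII were not analysed here, so each comparison is between AngII-infused aortas.

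Each library held between 25839001 and 97083681 counts in genes. Smooth muscle markers were present in every library. The mean log2 CPM (reads of a gene scaled to a common library size) of their 8 genes lay between 5.62 and 9.91. Markers of other tissues varied as well, with means from 3.47 to 8.83 for white adipocyte and from 4.24 to 8.20 for macrophage markers. D+1 IR 3, lowest in smooth muscle markers, had a white adipocyte mean of 8.69. D+1 IR 20, at 5.88 for smooth muscle markers, had the highest macrophage mean. Apoe, the deleted gene, still gave 3.49 to 30.8 CPM. The D+1 IR libraries 1, 2 and 3 carry a leading number in their file names that no other library has, and the meaning of that number is not stated, so values are also given without them. Second-strand reads made up 49.87% to 50.14% of the strand counts. The strand thus could not assign reads where genes overlap on opposite strands, and the counts leave such reads out.

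On GRCm38, Tgfb1 lies at chr7:25687002-25705077 on the plus strand, Tgfb2 at chr1:186622792-186705989 on the minus strand and Tgfb3 at chr12:86056745-86079041 on the minus strand. Tgfbr1 lies at chr4:47353222-47414931 on the plus strand and Tgfbr2 at chr9:116084293-116175360 on the minus strand. Ltbp1 lies at chr17:75005568-75392512 on the plus strand, Ltbp2 at chr12:84783212-84876532 on the minus strand, Ltbp3 at chr19:5740904-5758532 on the plus strand and Ltbp4 at chr7:27305136-27337692 on the minus strand. Genes on the opposite strand covered 12.42% of the exon bases of Tgfb3, 9.34% of Ltbp2, 2.14% of Tgfb2 and 2.01% of Ltbp3, and none of the exon bases of the other 5 genes.

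The 250 bases upstream of the start, from RefSeq on GRCm38.p6, are shown for Tgfb2, Tgfbr1 and Ltbp1, whose levels varied together between aortas, and for Tgfb1, whose level did not follow theirs. Capitals mark the SMAD-binding letters CAGAC or their reverse complement GTCTG, and the GC box GGGCGG or its reverse complement CCGCCC, to which Sp1 binds.
Tgfb2: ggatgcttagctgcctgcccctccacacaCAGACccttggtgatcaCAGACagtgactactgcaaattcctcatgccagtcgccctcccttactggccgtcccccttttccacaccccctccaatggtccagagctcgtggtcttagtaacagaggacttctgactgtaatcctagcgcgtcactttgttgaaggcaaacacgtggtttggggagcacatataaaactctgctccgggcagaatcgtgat
Tgfbr1: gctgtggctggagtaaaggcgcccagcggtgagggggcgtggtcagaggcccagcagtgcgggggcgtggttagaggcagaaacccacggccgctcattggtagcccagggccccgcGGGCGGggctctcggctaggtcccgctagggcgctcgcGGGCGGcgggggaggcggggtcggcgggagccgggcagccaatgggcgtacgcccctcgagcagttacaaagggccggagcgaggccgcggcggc
Ltbp1: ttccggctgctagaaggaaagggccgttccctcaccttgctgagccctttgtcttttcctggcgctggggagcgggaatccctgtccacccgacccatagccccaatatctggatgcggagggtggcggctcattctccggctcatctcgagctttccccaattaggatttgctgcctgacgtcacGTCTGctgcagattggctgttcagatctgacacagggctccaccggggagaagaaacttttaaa
Tgfb1: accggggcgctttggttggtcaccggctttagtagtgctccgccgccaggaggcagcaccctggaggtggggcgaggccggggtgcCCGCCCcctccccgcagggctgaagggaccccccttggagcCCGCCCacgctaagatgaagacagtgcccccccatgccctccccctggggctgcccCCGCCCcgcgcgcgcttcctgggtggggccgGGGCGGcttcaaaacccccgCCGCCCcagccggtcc
These windows are chr1:186705990-186706239 for Tgfb2, chr4:47352972-47353221 for Tgfbr1, chr17:75005279-75005528 for Ltbp1 and chr7:25686752-25687001 for Tgfb1. CAGAC occurred 2 times upstream of Tgfb2, 1 time upstream of Ltbp1 and 0 times upstream of Tgfbr1 and Tgfb1, while 42.2% of all 32851 promoters of this length in the table held it on either strand. The GC box occurred 5 times upstream of Tgfb1 and 2 times upstream of Tgfbr1, and 0 times upstream of Tgfb2 and Ltbp1, against 32.7% of all promoters with at least 1 match. The serum response factor motif known as the CArG box, a control element of many smooth muscle genes, occurred in none of the 8 windows found for the 9 genes and in 1.5% of all promoters. The windows of Tgfb1 and Tgfbr1 were 75.2% and 74.8% G and C, those of Tgfb2 and Ltbp1 53.6% and 56.8%, and the median of all promoters was 52.4%. No pattern was held by all 3 of the genes that varied together, and a match or its absence says nothing of binding.

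Divided by exon length, Ltbp4 was the most abundant of the genes, with 111 ± 46.4 CPM per kb of exon (SD, n = 19). Its level exceeded that of Ltbp3, at 47.0 ± 19.1 CPM per kb, in 19 of 19 libraries (paired permutation test, two-sided, p = 1e-05, the smallest that the permutations can give, adjusted p = 8e-05 over 8 neighbouring pairs). Next in the order of mean log2 levels came Tgfb3 with 40.0 ± 15.3, Ltbp1 with 42.9 ± 28.5, Tgfbr2 with 21.2 ± 5.70 and Ltbp2 with 21.5 ± 9.06 CPM per kb. Tgfb1 with 16.7 ± 6.51, Tgfb2 with 13.4 ± 8.44 and Tgfbr1 with 9.37 ± 4.47 CPM per kb were lowest. Below Ltbp4 no neighbours in this order differed past the threshold, with adjusted p-values of 0.0826 to 0.718. The order depends on the length used, since 5 of the 9 genes kept their rank when the longest transcript was the length.

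**Figure D1:**
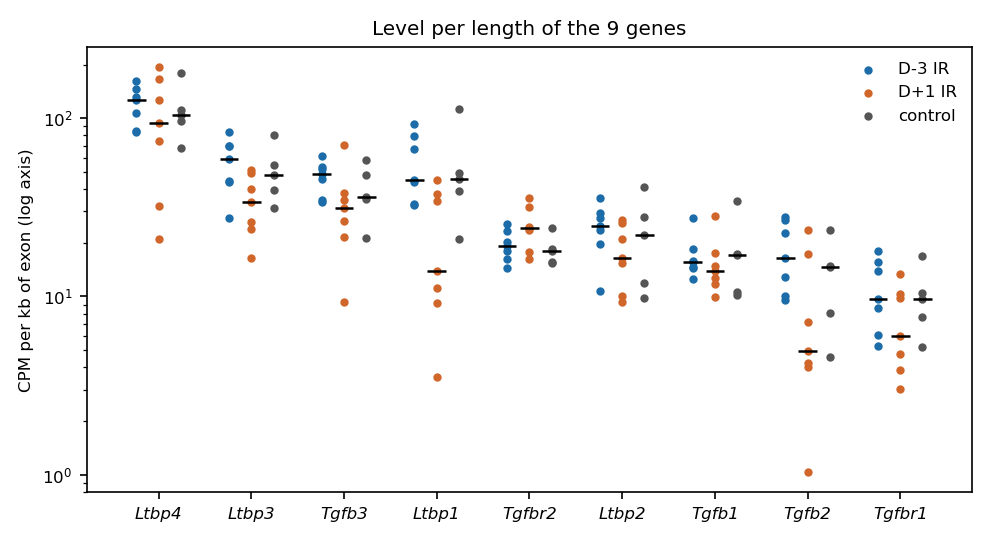
Level of each gene in CPM per kb of exon on a log axis, with 1 point per aorta and a black line at the median of D-3 IR (n = 7), D+1 IR (n = 7) and control (n = 5). Ltbp4 stood highest, and the median of Ltbp1 was 45.2 CPM per kb for D-3 IR, 13.9 for D+1 IR and 45.4 for control.

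Among the ligands, Tgfb3 was the most abundant per length and Tgfb2 the most variable, while Tgfb1 had log2 fold changes near 0. edgeR called none of the 3 in any comparison, whereas limma voom called Tgfb2 and Tgfb3 in D-3 IR relative to D+1 IR, as given further on. Tgfb1, the ligand made by platelets, immune cells and many others, had 63.4, 78.6 and 138 CPM as its lowest, median and highest values in D-3 IR aortas, and 50.03, 69.7 and 142 CPM in D+1 IR. The 5 control aortas had 51.3, 86.8, 86.4, 53.4 and 173 CPM. A single high aorta stood out in each group, and the groups overlapped over most of their range. The log2 fold change of Tgfb1 was -0.07 ± 0.30 (SE) in D-3 IR relative to control, -0.20 ± 0.30 in D+1 IR relative to control and 0.13 ± 0.27 in D-3 IR relative to D+1 IR (edgeR, adjusted p = 1, 0.871 and 0.864).

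Tgfb2, a ligand needed for the development of the aortic arch in mice, had 55.5, 95.0 and 162 CPM as its lowest, median and highest values in D-3 IR aortas. Those of D+1 IR were 5.98, 28.6 and 136 CPM, and the control aortas had 26.5, 84.4, 137, 46.9 and 86.1 CPM. All 7 D-3 IR aortas lay above the D+1 IR median and 3 of 7 D+1 IR aortas lay below every control, but the groups overlapped. Between groups, Tgfb2 had a fold change on the log2 scale of 0.46 ± 0.58 in D-3 IR relative to control, -0.57 ± 0.57 in D+1 IR relative to control and 1.03 ± 0.53 in D-3 IR relative to D+1 IR (edgeR, adjusted p = 1, 0.773 and 0.454). The lowest D+1 IR values came from libraries 1, 2, 3 and 20, and without libraries 1, 2 and 3 the log2 fold change was -0.02 in D+1 IR relative to control and 0.49 in D-3 IR relative to D+1 IR.

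Tgfb3, the third ligand, had 115, 164 and 207 CPM as its lowest, median and highest values in D-3 IR aortas, and 31.6, 106 and 238 CPM in D+1 IR. Control aortas had 71.6, 162, 197, 119 and 122 CPM. D+1 IR held both the lowest and the highest aorta, and the groups overlapped. Its log2 fold change was 0.24 ± 0.34 in D-3 IR relative to control, -0.26 ± 0.34 in D+1 IR relative to control and 0.50 ± 0.31 in D-3 IR relative to D+1 IR (edgeR, adjusted p = 1, 0.852 and 0.51). Leaving out the D+1 IR libraries 1, 2 and 3 gave 0.14 in D+1 IR relative to control, in the other direction, and 0.12 in D-3 IR relative to D+1 IR.

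As a share of the 3 ligands per length, Tgfb3 had a median of 56.4% in D-3 IR aortas, 54.5% in D+1 IR and 59.0% in control. The share of Tgfb2 had a median of 21.5% in D-3 IR aortas, 11.4% in D+1 IR and 17.5% in control. Its level per length was above that of Tgfb1 in 4 of 7 D-3 IR, 1 of 7 D+1 IR and 1 of 5 control aortas. By median Tgfb3 was thus the leading ligand transcript per length in all 3 groups, though not in every aorta. In D+1 IR 3 the share of Tgfb1 was 58.7% and that of Tgfb3 37.2%. The order of Tgfb1 and Tgfb2 varied from aorta to aorta. These shares depend on the length used, since the longest Tgfb1 transcript has 2573 bases against the 5042 exon bases used here. With the longest transcript as the length, mean levels ranked Tgfb3 first, then Tgfb1, then Tgfb2, and shares per aorta were not computed.

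The receptors lay on opposite sides of 0 in D+1 IR relative to control, Tgfbr2 above and Tgfbr1 below, but neither difference passed the adjusted test of edgeR, DESeq2 or limma voom. Tgfbr1, the type I receptor that signals to SMADs, had 34.4, 63.0 and 118 CPM as its lowest, median and highest values in D-3 IR aortas, and 19.7, 39.0 and 86.9 CPM in D+1 IR. In the control aortas it had 34.2, 50.2, 110.3, 63.1 and 68.5 CPM. In D+1 IR, 3 of 7 aortas lay below every control, and the groups overlapped. Tgfbr1 had a fold change on the log2 scale of 0.14 ± 0.39 in D-3 IR relative to control, -0.46 ± 0.39 in D+1 IR relative to control and 0.60 ± 0.36 in D-3 IR relative to D+1 IR (edgeR, adjusted p = 1, 0.716 and 0.492). Without the D+1 IR libraries 1, 2 and 3 it was -0.083 in D+1 IR relative to control, or 0.36 under limma voom, and 0.24 in D-3 IR relative to D+1 IR, so the side of 0 on which Tgfbr1 lay in D+1 IR relative to control then depended on the tool.

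Tgfbr2, the type II receptor that binds the ligand first, had 119, 157 and 208 CPM as its lowest, median and highest values in D-3 IR aortas, and 132, 198 and 292 CPM in D+1 IR. The 5 controls had 197, 147, 127, 128 and 151 CPM. Of the 7 D+1 IR aortas 4 lay above every control, the 2 highest of them libraries 1 and 2, and the groups overlapped. For Tgfbr2 the log2 fold change was 0.09 ± 0.20 in D-3 IR relative to control, 0.44 ± 0.20 in D+1 IR relative to control and -0.34 ± 0.18 in D-3 IR relative to D+1 IR (edgeR, unadjusted p = 0.641, 0.041 and 0.0721, adjusted p = 1, 0.644 and 0.457). With the D+1 IR libraries 1, 2 and 3 left out it was 0.19 in D+1 IR relative to control and -0.08 in D-3 IR relative to D+1 IR. The unadjusted p in D+1 IR relative to control stayed under 0.05 in 11 of the 19 fits that left out 1 library, and reached 0.102 without D+1 IR 1. The ratio of Tgfbr2 to Tgfbr1 per length had a median of 2.07 (range 1.04 to 3.16) in D-3 IR aortas, 4.16 (1.72 to 7.85) in D+1 IR and 1.76 (0.92 to 4.61) in control. Of the 9 genes Tgfbr2 varied least, with an SD of 0.36 in log2 CPM over the 19 aortas.

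**Figure D2:**
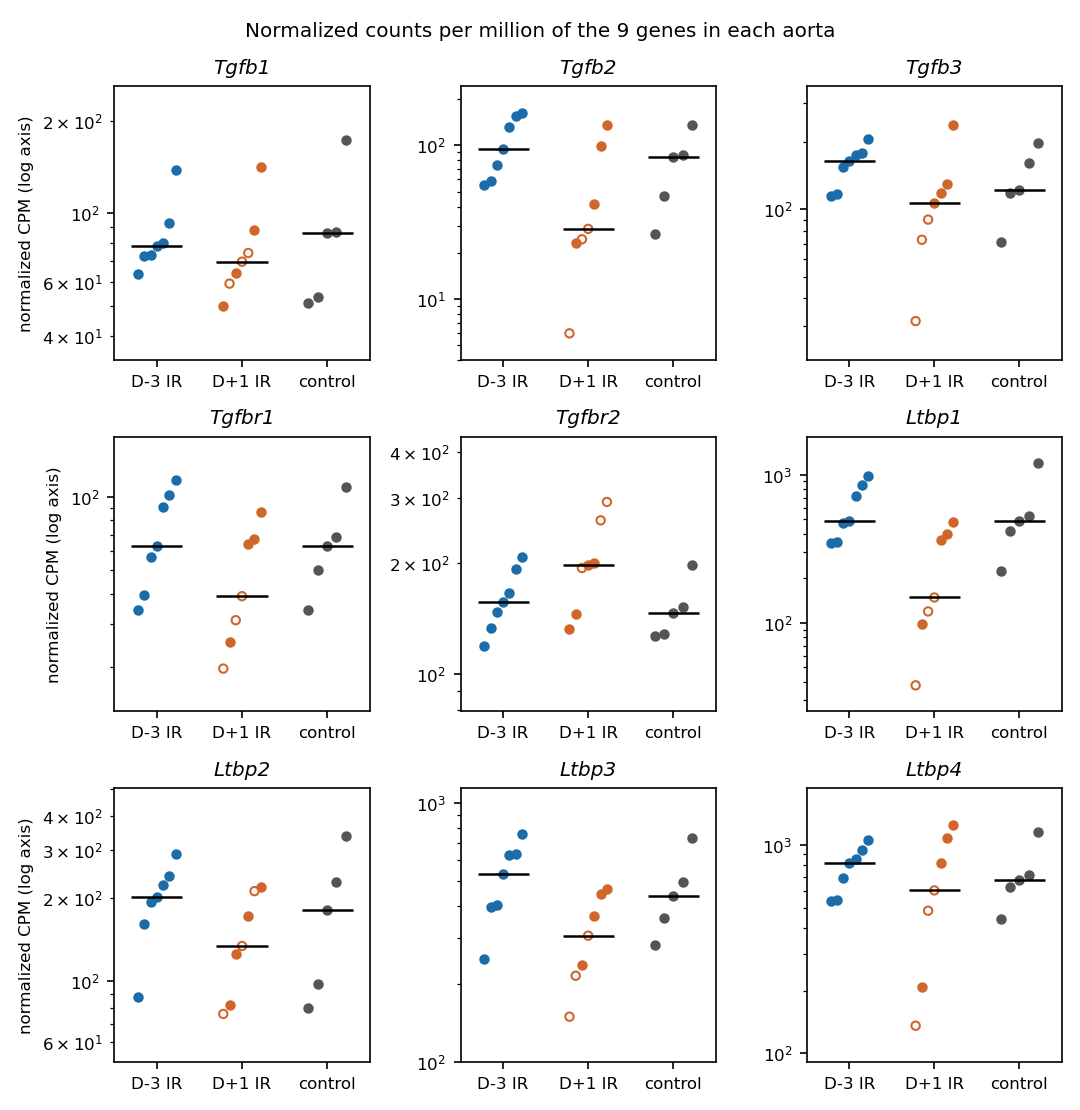
Normalized CPM of each gene on a log axis whose range differs between panels, with 1 point per aorta in order of level and a line at the median, and open points for the D+1 IR libraries 1, 2 and 3. The D+1 IR values of Ltbp1 run down to 37.8 CPM, below the lowest control at 223 CPM, while Tgfbr2 reaches 292 CPM in D+1 IR.

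Among the latent binders, Ltbp1 and Ltbp3 had the largest log2 fold changes between the irradiated groups, and edgeR called neither, whereas limma voom called both, as given further on. Ltbp1, which binds the latent complex of all 3 ligands, had 346, 484 and 987 CPM as its lowest, median and highest values in D-3 IR aortas. The D+1 IR aortas had 37.8, 148 and 480.5 CPM, and the control aortas had 223, 485, 1198, 417 and 530 CPM. None of the 7 D+1 IR aortas lay above the control median and 4 lay below every control, whereas the D-3 IR range lay inside that of control. The means were 601 ± 252 CPM in D-3 IR aortas (SD, n = 7), 236 ± 175 CPM in D+1 IR (SD, n = 7) and 571 ± 369.5 CPM in control (SD, n = 5). Ltbp1 had a fold change on the log2 scale of 0.07 ± 0.53 in D-3 IR relative to control, -1.28 ± 0.52 in D+1 IR relative to control and 1.35 ± 0.49 in D-3 IR relative to D+1 IR (edgeR, unadjusted p = 0.887, 0.0242 and 0.0123, adjusted p = 1, 0.644 and 0.409). These were the largest of the 9 genes in both comparisons with D+1 IR, and leaving out libraries 1, 2 and 3 of D+1 IR turned them into -0.76 in D+1 IR relative to control and 0.85 in D-3 IR relative to D+1 IR. Without control 6, the aorta at 1198 CPM, Ltbp1 had -0.81 ± 0.52 in D+1 IR relative to control (edgeR, unadjusted p = 0.136), so its unadjusted p under 0.05 there rested on that aorta. In D-3 IR relative to D+1 IR the unadjusted p of Ltbp1 was under 0.05 in all 19 fits that left out 1 library.

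Ltbp2, which does not bind latent TGF-β but is found on elastic fibers, had 87.3, 202 and 291 CPM as its lowest, median and highest values in D-3 IR aortas, and 76.1, 134 and 221 CPM in D+1 IR. Among the controls it had 97.7, 229, 182, 80.0 and 336 CPM. Control spanned nearly the whole range of both other groups. Ltbp2 had a fold change on the log2 scale of 0.11 ± 0.36 in D-3 IR relative to control, -0.34 ± 0.36 in D+1 IR relative to control and 0.45 ± 0.33 in D-3 IR relative to D+1 IR (edgeR, adjusted p = 1, 0.792 and 0.579). The value in D+1 IR relative to control was -0.008 without control 9, the aorta at 336 CPM, and -0.53 without control 8, so the size of this difference depended on single control aortas.

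Ltbp3, another binder of the latent complex, had 250.4, 534 and 759 CPM as its lowest, median and highest values in D-3 IR aortas. In D+1 IR these were 149.8, 307 and 464 CPM, and the control aortas had 283, 437, 732, 360 and 495 CPM. Of the 7 D+1 IR aortas 3 lay below every control, and 4 of 7 D-3 IR aortas lay above every D+1 IR aorta. For Ltbp3 the log2 fold change was 0.16 ± 0.31 in D-3 IR relative to control, -0.56 ± 0.31 in D+1 IR relative to control and 0.73 ± 0.29 in D-3 IR relative to D+1 IR (edgeR, unadjusted p = 0.611, 0.0847 and 0.0205, adjusted p = 1, 0.644 and 0.417). When the D+1 IR libraries 1, 2 and 3 were left out, it was -0.28 in D+1 IR relative to control and 0.46 in D-3 IR relative to D+1 IR.

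Ltbp4, which also organizes elastic fibers through fibulins, had 539, 815 and 1052 CPM as its lowest, median and highest values in D-3 IR aortas, and 136, 605 and 1249 CPM in D+1 IR. Control aortas had 626, 443, 721, 1154 and 677 CPM. D+1 IR again held both the lowest and the highest aorta. For Ltbp4 the log2 fold change was 0.10 ± 0.42 in D-3 IR relative to control, -0.15 ± 0.42 in D+1 IR relative to control and 0.25 ± 0.39 in D-3 IR relative to D+1 IR (edgeR, adjusted p = 1, 0.943 and 0.807). The sign was the other without the D+1 IR libraries 1, 2 and 3, at 0.23 in D+1 IR relative to control and -0.10 in D-3 IR relative to D+1 IR. Per length, the share of Ltbp1 among the 4 latent binders had a median of 21.0% in D-3 IR aortas, 9.8% in D+1 IR and 19.8% in control, and that of Ltbp4 a median of 49.8% in D-3 IR aortas, 54.2% in D+1 IR and 41.9% in control.

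In D-3 IR relative to control the log2 fold changes of the 9 genes lay between -0.07 and 0.46. In this comparison edgeR called 0 of the 9 genes at an adjusted p under 0.05 and 0 at an unadjusted p under 0.05, against 0% and 1.32% of all genes tested. In D+1 IR relative to control edgeR called 0 of the 9 after adjustment (0% of all genes), and 2 had an unadjusted p under 0.05 (7.11% of all genes), Tgfbr2 higher (2.28% of all genes were higher) and Ltbp1 lower (4.84% were lower). In D-3 IR relative to D+1 IR edgeR called 0 of the 9 after adjustment (0% of all genes), and 2 had an unadjusted p under 0.05 (11.5% of all genes), Ltbp1 and Ltbp3, both higher in D-3 IR aortas (6.71% of all genes were higher). The joint test over all 3 groups called 0 of 9 after adjustment (0% of all genes), with Ltbp1 alone at an unadjusted p under 0.05 (0.0286, against 6.65% of all genes). A count of 2 in 9 genes lay above these shares by only about 1 gene and is not read as a result about the 9 genes.

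The median log2 fold change of the 9 genes was 0.11 in D-3 IR relative to control, -0.34 in D+1 IR relative to control and 0.50 in D-3 IR relative to D+1 IR, while that of all genes tested was -0.03, -0.04 and -0.04. It was above 0 for 8 of 9 genes in D-3 IR relative to control (43.1% of all genes), for 1 of 9 in D+1 IR relative to control (44.9% of all genes) and for 8 of 9 in D-3 IR relative to D+1 IR (45.4% of all genes). The exception was Tgfb1 in the comparison of D-3 IR with control and Tgfbr2 in the other two. When libraries 1, 2 and 3 of D+1 IR were left out, the median was -0.04 in D+1 IR relative to control, where 3 of 9 genes (Tgfb3, Tgfbr2 and Ltbp4) lay above 0 (48.3% of all genes), and 0.24 in D-3 IR relative to D+1 IR, where 6 of 9 did (45% of all genes). The genes thus lay less to one side of 0 in both comparisons without these libraries, and edgeR then gave 0 of the 9 genes an unadjusted p under 0.05 (1.52% and 3.51% of all genes). The comparisons share their groups of mice, and the genes vary together between aortas, so these counts are not independent of each other.

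**Figure D3:**
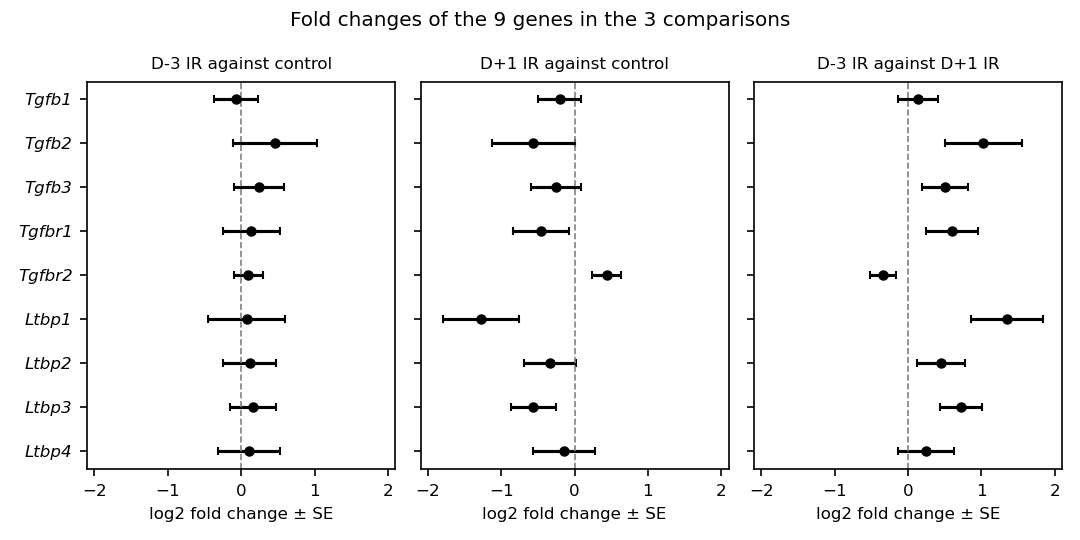
Log2 fold change of the 9 genes in the 3 comparisons, with bars of ± 1 SE from edgeR over 19 aortas and a dashed line at 0. Ltbp1 lies farthest from 0 in D+1 IR relative to control (-1.28) and in D-3 IR relative to D+1 IR (1.35), and Tgfbr2 lies on the other side of 0 from the remaining 8 genes in both.

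The count of calls in D-3 IR relative to D+1 IR depended on the tool. DESeq2 called 0 of the 9 genes in each comparison, and 0, 2 and 10 of all genes in D-3 IR relative to control, D+1 IR relative to control and D-3 IR relative to D+1 IR (0%, 0.0114% and 0.0568%). limma voom with sample quality weights, which gives less weight to aortas that stand apart, called 0 of the 9 genes in both comparisons with control (0% of all genes) and 4 in D-3 IR relative to D+1 IR (13% of all genes). These were Tgfb2 with a fold change on the log2 scale of 1.73 (adjusted p = 0.0289), Tgfb3 with 0.87 (adjusted p = 0.0364), Ltbp1 with 1.85 (adjusted p = 0.0243) and Ltbp3 with 0.95 (adjusted p = 0.0278). Without the D+1 IR libraries 1, 2 and 3 limma voom called 0 of the 9 (0% of all genes), and without D-3 IR 10 and D+1 IR 3 it called 3 of the 9, Tgfb2, Ltbp1 and Ltbp3 (3.63% of all genes).

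Tgfb2, Tgfb3, Tgfbr1, Ltbp1 and Ltbp3 varied together from aorta to aorta, whereas Tgfb1 and Tgfbr2 did not rise and fall with them. Ltbp2 went with some of them, mainly within D-3 IR, and Ltbp4 within D+1 IR. Over 19 aortas Pearson's r of log2 CPM was 0.95 between Tgfb2 and Ltbp1 (Spearman's rho 0.91), 0.94 between Tgfbr1 and Ltbp3 (rho 0.92), 0.93 between Tgfb2 and Tgfb3 (rho 0.89) and 0.93 between Ltbp1 and Ltbp3 (rho 0.92). Each had a permutation p of 1e-05 for both measures, the smallest that the permutations can give, and an adjusted p of 5.1e-05 for r and 6e-05 for rho over 36 pairs. Without the 2 aortas farthest from the median of the first gene of each pair, r was 0.90, 0.91, 0.91 and 0.89 for these pairs. Without the D+1 IR libraries 1, 2 and 3, r was 0.88, 0.90, 0.82 and 0.90, and within D+1 IR it was 0.96, 0.96, 0.93 and 0.94 (exact permutation tests, adjusted p = 0.0071, 0.018, 0.021 and 0.02). Within D-3 IR it was 0.95, 0.92, 0.77 and 0.89 (exact permutation tests, adjusted p = 0.026, 0.025, 0.15 and 0.03). All 4 pairs thus passed within D+1 IR and 3 of them within D-3 IR aortas, so the covariation was not only between groups. Tgfb3 was less closely tied. Within D-3 IR its r was 0.77 with Tgfb2, 0.75 with Ltbp1, 0.61 with Tgfbr1 and 0.39 with Ltbp3. None of these passed (exact permutation tests, adjusted p = 0.15, 0.16, 0.35 and 0.55). Without the D+1 IR libraries 1, 2 and 3 it was 0.56 with Tgfbr1 and 0.59 with Ltbp3 (permutation tests, adjusted p = 0.071 and 0.057).

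Of the 36 pairs 18 passed the threshold over all 19 aortas, and 11 did so without the 2 farthest aortas of each pair. Tgfbr2 and Tgfb3 varied in opposite directions, with r of -0.56 (rho -0.64, permutation p = 0.012 for r and 0.0043 for rho, adjusted p = 0.026 and 0.013), -0.67 without the 2 farthest aortas and -0.47 without the D+1 IR libraries 1, 2 and 3 (adjusted p = 0.13). Ltbp4 correlated with Ltbp1 at r of 0.75 (rho 0.46, permutation p = 0.00075 and 0.048, adjusted p = 0.0022 and 0.091), but at 0.33 without the 2 farthest aortas, D+1 IR 3 and 20, so over 19 aortas the relation rests on them. Within D+1 IR, these 2 aortas included, r of Ltbp4 was 0.95 with Ltbp1, 0.90 with Tgfbr1, 0.88 with Tgfb2 and 0.87 with Ltbp3 (exact permutation tests, adjusted p = 0.0071, 0.024, 0.033 and 0.034). Within D-3 IR it was 0.34, 0.49, 0.35 and 0.64 for the same genes (exact permutation tests, adjusted p = 0.55, 0.45, 0.55 and 0.32). Between Tgfb1 and Ltbp1 r was 0.07 (rho 0.27, permutation p = 0.78 and 0.26, adjusted p = 0.88 and 0.32).

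For Ltbp2, r within D-3 IR was 0.96 with Ltbp3, 0.87 with Tgfbr1, 0.84 with Ltbp1 and 0.79 with Tgfb2 (exact permutation tests, adjusted p = 0.018, 0.018, 0.026 and 0.036). These were 4 of the 9 pairs that passed within D-3 IR. Within D+1 IR r was 0.25, 0.07, 0.08 and 0.27 for the same genes (exact permutation tests, adjusted p = 0.86, 0.99, 0.99 and 0.86), and the difference between the groups was not tested. Over 19 aortas Ltbp2 passed with Ltbp3 at r of 0.62 (rho 0.62, permutation p = 0.005 and 0.0057, adjusted p = 0.012 and 0.016) and with Tgfb2 at 0.54 (rho 0.49, permutation p = 0.015 and 0.035, adjusted p = 0.029 and 0.069). Without the 2 farthest aortas these were 0.54 and 0.52 (adjusted p = 0.075 and 0.081).

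**Figure D4:**
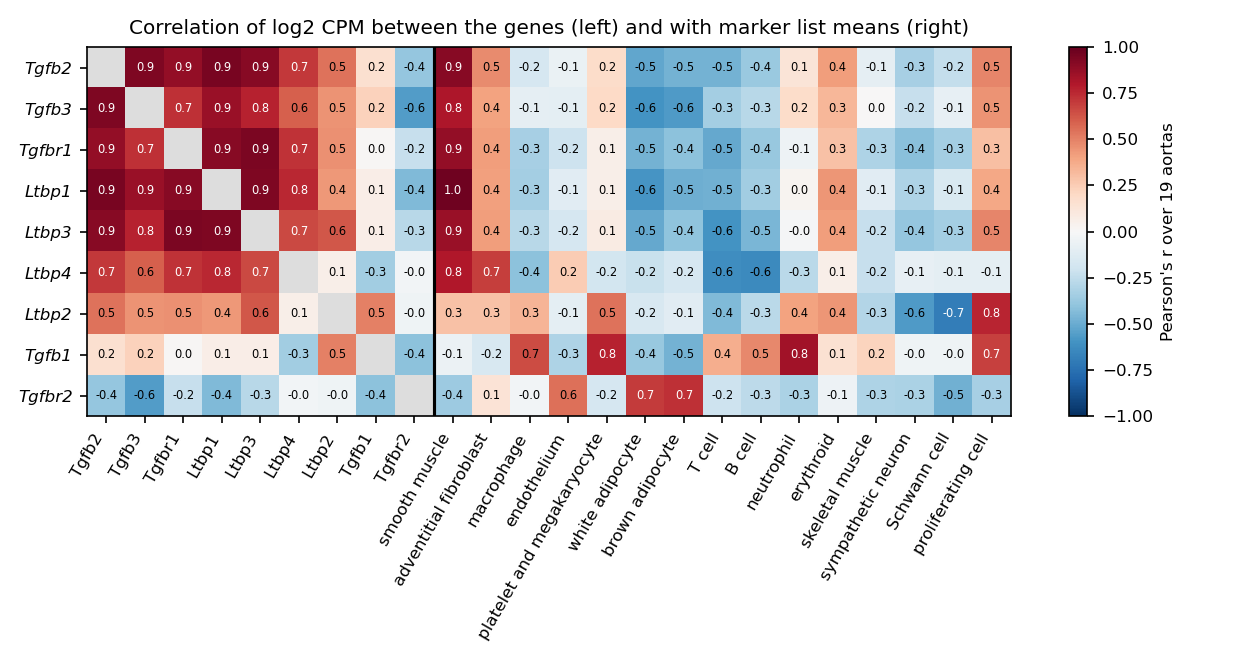
Pearson's r of log2 CPM over 19 aortas, among the 9 genes on the left of the vertical line and between each gene and the mean log2 CPM of 15 marker lists on the right, with red positive and blue negative. The 5 genes Tgfb2, Tgfb3, Tgfbr1, Ltbp1 and Ltbp3 form a red square beside the smooth muscle column, and Tgfb1 and Tgfbr2 lie apart.

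The levels of those 5 genes followed the smooth muscle markers of the aorta. With the mean log2 CPM of 8 smooth muscle markers (Myh11, Acta2, Tagln, Cnn1, Smtn, Lmod1, Mylk and Myocd), r over 19 aortas was 0.97 for Ltbp1 (rho 0.89), 0.91 for Tgfb2 (rho 0.90), 0.88 for Tgfbr1 (rho 0.87), 0.86 for Ltbp3 (rho 0.80) and 0.81 for Tgfb3 (rho 0.90). The permutation p for r was 1e-05 for the first 4 (adjusted p = 0.00034 over 135 pairs of a gene and a list) and 7e-05 for Tgfb3 (adjusted p = 0.0016). The permutation p for rho was 1e-05 (adjusted p = 0.00034) for all but Ltbp3, which had 0.0001 (adjusted p = 0.0019). Without the 2 farthest aortas r was 0.96, 0.88, 0.82, 0.80 and 0.87 for Ltbp1, Tgfb2, Tgfbr1, Ltbp3 and Tgfb3. Without the D+1 IR libraries 1, 2 and 3 it was 0.97 for Ltbp1, 0.84 for Tgfb2, 0.85 for Tgfbr1, 0.81 for Ltbp3 and 0.62 for Tgfb3, the last with an adjusted p of 0.09. Without these libraries, Tgfbr1, Ltbp1 and Ltbp3 also varied in the opposite direction to 6 sympathetic neuron markers. There r was -0.72, -0.72 and -0.74 (permutation tests, adjusted p = 0.026, 0.015 and 0.019), and Tgfb2 and Tgfb3 did not pass. Over all 19 aortas r of Tgfbr1, Ltbp1 and Ltbp3 with this list was -0.42, -0.31 and -0.39 (permutation tests, adjusted p = 0.21, 0.35 and 0.23). With the smooth muscle markers, r of Ltbp1 was 0.96 within D-3 IR and 0.95 within D+1 IR (exact permutation tests, adjusted p = 0.15 and 0.027).

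The smooth muscle marker mean itself differed between aortas in the same way. Its lowest, median and highest values were 8.32, 8.59 and 9.73 in D-3 IR aortas, 5.62, 7.89 and 8.96 in D+1 IR and 7.66, 8.74 and 9.91 in control. The lowest of all were the D+1 IR libraries 3, 20 and 1, which were also lowest for Ltbp1. All 8 smooth muscle markers had a log2 fold change above 0 in D-3 IR relative to D+1 IR (6 at an unadjusted p under 0.05, relative to 6.71% of all genes higher), with a median of 1.12. All 8 were below 0 in D+1 IR relative to control (4 at an unadjusted p under 0.05, relative to 4.84% of all genes lower), with a median of -0.97, and edgeR called 0 of them after adjustment in either comparison. With libraries 1, 2 and 3 of D+1 IR left out, these medians became 0.72 and -0.58, with 0 markers at an unadjusted p under 0.05 in both. Other lists moved farther. Erythroid markers had a median of 2.76 in D-3 IR relative to D+1 IR and -2.50 in D+1 IR relative to control, with 6 of 6 at an unadjusted p under 0.05 in each, and skeletal muscle markers a median of 3.26 in D-3 IR relative to D+1 IR, with 3 of 6. The skeletal muscle value rested mainly on D-3 IR 10 and D-3 IR 15, with marker means of 9.91 and 8.25 log2 CPM. The medians of that mean were 3.11 in D-3 IR aortas and 2.12 in D+1 IR. None of the 9 genes had a correlation with the erythroid or the skeletal muscle list that passed the threshold over 19 aortas. Set against the marker mean in the same aorta, Ltbp1 had a median difference of 0.21 log2 units in D-3 IR aortas, -0.05 in D+1 IR and 0.18 in control, and Tgfb2 a median difference of -2.45 in D-3 IR aortas, -2.25 in D+1 IR and -2.81 in control. The ranges of the groups overlapped in these ratios, and the D+1 IR median of Tgfb2 was the highest of the 3. D+1 IR also had the highest median for Tgfb3, Tgfbr1 and Ltbp3, at -1.07, -2.18 and 0.18. The medians of these genes were -1.65, -2.86 and -0.06 in D-3 IR aortas and -1.64, -2.81 and 0.03 in control. For Ltbp1 the D+1 IR median was the lowest. In bulk tissue a smaller share of smooth muscle cells in the sample and less RNA per cell cannot be told apart, and the part of cell content in the differences between groups was not tested.

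Tgfb1 went instead with neutrophil and platelet markers and Tgfbr2 with fat markers. For Tgfb1, r was 0.84 with the mean of 5 measured neutrophil markers (rho 0.74, permutation p = 2e-05 and 0.00045, adjusted p = 0.00054 and 0.0067) and 0.75 without the 2 farthest aortas. With 5 platelet and megakaryocyte markers r was 0.77 (rho 0.68, permutation p = 0.00028 and 0.002, adjusted p = 0.0043 and 0.019), and 0.73 without the 2 farthest aortas. With 8 macrophage markers it was 0.65 (rho 0.53, permutation p = 0.0024 and 0.022, adjusted p = 0.023 and 0.12), and 0.36 without the 2 farthest aortas, on which that relation rests. The other blood cell lists did not pass with Tgfb1. Its r was 0.36 with T cell, 0.48 with B cell and 0.15 with erythroid markers (permutation tests, adjusted p = 0.28, 0.16 and 0.67). Tgfb1 also went with 6 markers of dividing cells, at r of 0.68 (rho 0.71, permutation p = 0.0017 and 0.0011, adjusted p = 0.018 and 0.012), and 0.63 without the 2 farthest aortas (adjusted p = 0.065). The control aorta of the highest Tgfb1 level, 173 CPM, also had the highest neutrophil mean of all, 7.37 log2 CPM. For the neutrophil markers the log2 fold change had a median of -3.13 between D-3 IR and control, with 5 of 5 lower at an unadjusted p under 0.05 (0.817% of all genes were lower), and of -3.17 between D+1 IR and control, with 4 of 5 (4.84%), while Tgfb1 itself had -0.07 and -0.20. The median of the neutrophil mean was 1.04 log2 CPM in D-3 IR aortas, 1.31 in D+1 IR and 1.21 in control.

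For Tgfbr2, r was 0.73 with 6 brown adipocyte markers (rho 0.82, permutation p = 0.00043 and 5e-05, adjusted p = 0.0058 and 0.0011) and 0.70 with 6 white adipocyte markers (rho 0.82, permutation p = 0.00077 and 5e-05, adjusted p = 0.0094 and 0.0011). Without the 2 farthest aortas r was 0.68 for brown and 0.77 for white adipocyte markers. Leaving out libraries 1, 2 and 3 of D+1 IR gave 0.70 for brown and 0.61 for white adipocyte markers. The white adipocyte mean had a median of 7.54 log2 CPM (range 6.35 to 8.11) in D-3 IR aortas, 8.23 (6.44 to 8.83) in D+1 IR and 7.04 (3.47 to 8.34) in control. The 3 highest values of all, 8.69 to 8.83, were those of the D+1 IR libraries 1, 2 and 3, of which 2 had the highest Tgfbr2 levels. The part of fat in the Tgfbr2 difference was not tested.

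**Figure D5:**
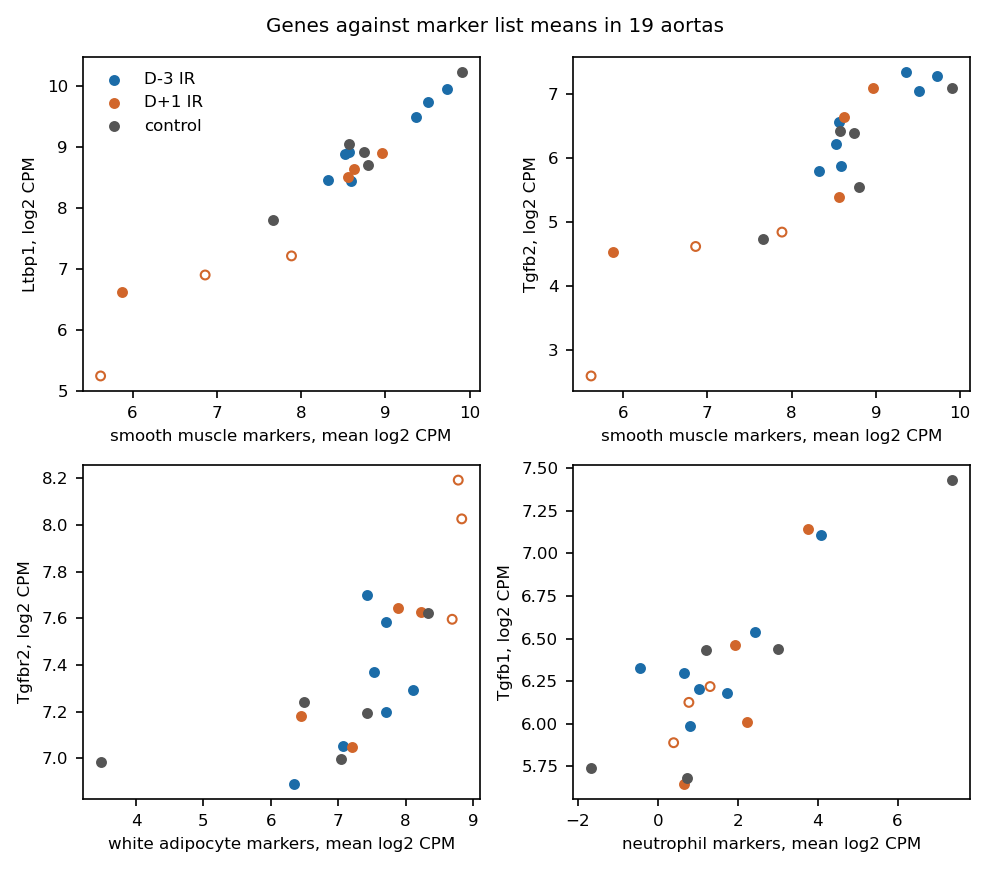
Log2 CPM of 4 genes against the mean log2 CPM of a marker list, with 1 point per aorta and open points for the D+1 IR libraries 1, 2 and 3. Ltbp1 and Tgfb2 follow the smooth muscle mean (r of 0.97 and 0.91), Tgfbr2 follows the white adipocyte mean (0.70) and Tgfb1 the neutrophil mean (0.84).

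Ltbp2, like Tgfb1, went with markers of dividing cells, at r of 0.76 with the 6 genes, among them Mki67 and Top2a (rho 0.72, permutation p = 0.00029 and 0.0007, adjusted p = 0.0043 and 0.0086), and 0.77 without the 2 farthest aortas. With 5 Schwann cell markers the relation was negative, with r of -0.69 (rho -0.69, permutation p = 0.0013 and 0.0014, adjusted p = 0.015 for both) and -0.60 without the 2 farthest aortas (adjusted p = 0.098). Ltbp4 had r of 0.80 with smooth muscle markers (rho 0.55, permutation p = 0.00022 and 0.017, adjusted p = 0.0042 and 0.11) and 0.40 without the 2 farthest aortas, again D+1 IR 3 and 20, so over 19 aortas this relation too rests on them. Within D+1 IR, these 2 included, it was 0.97 (exact permutation test, adjusted p = 0.027), and within D-3 IR 0.28 (exact permutation test, adjusted p = 0.81). The D+1 IR libraries 3 and 20 were lowest in Ltbp4 as well as in smooth muscle markers. With 8 adventitial fibroblast markers r of Ltbp4 was 0.69 (rho 0.58, permutation p = 0.0037 and 0.011, adjusted p = 0.033 and 0.089). With 5 B cell markers it was -0.64 (rho -0.54, permutation p = 0.0056 and 0.017, adjusted p = 0.047 and 0.11). Without the 2 farthest aortas these were 0.39 and -0.51 (permutation tests, adjusted p = 0.36 and 0.18).

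The genes whose levels were most like those of each gene were named by the highest r over 19 aortas among all genes tested. For Ltbp1 they were Mtus2 (0.99), Lamb2, a laminin subunit (0.99), and Ptgis, prostacyclin synthase (0.99). For Tgfb2 they were Pdlim5, a protein of the actin cytoskeleton (0.98), the transcription factor gene Foxc2 (0.97) and again Ptgis (0.96), and for Tgfb3 they were Gm17501 (0.95), Ankrd1 (0.94) and Cbr2 (0.93). For Tgfbr1 they were Pdzrn3, the creatine transporter gene Slc6a8 and Esyt2 (0.97 each), and for Ltbp3 Mtmr11 (0.97), the heparan sulfate proteoglycan gene Hspg2 and the cadherin gene Fat1 (0.96 each). Ltbp2 stood with the matrix genes Col8a1 (0.91), Loxl2 (0.91) and Col12a1 (0.90), and Ltbp4 with Ppap2b (0.94), Hhip (0.94) and the basement membrane collagen gene Col4a3 (0.94). The inflammasome adaptor gene Pycard (0.93), the RNA export gene Nxf1 (0.92) and Shmt2 (0.92) were most like Tgfb1, and 2610507B11Rik (0.94), Tpcn1 (0.93) and Ctage5 (0.93) most like Tgfbr2. These values are the highest of many and are given as a description.

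In the rest of the pathway edgeR called 0 genes after adjustment in any comparison (0% of all genes). Genes for the matrix that holds the latent complex had the highest median log2 fold change of the 6 lists in D-3 IR relative to D+1 IR, and SMAD transducers and other receptors had medians near 0. Of 15 matrix genes tested, 13 had a log2 fold change above 0 in D-3 IR relative to D+1 IR (45.4% of all genes), with a median of 0.75. At an unadjusted p under 0.05, 6 were higher and 1 lower (6.71% and 4.75% of all genes). Elastin (Eln), the main protein of elastic fibers, averaged 27347 ± 12079 CPM in D-3 IR aortas, 6917 ± 5854 CPM in D+1 IR and 24951 ± 18250 CPM in control (SD). Its log2 fold change was 1.98 ± 0.66 (SE) in D-3 IR relative to D+1 IR and -1.85 ± 0.69 in D+1 IR relative to control (edgeR, adjusted p = 0.409 and 0.644). In D-3 IR relative to D+1 IR, Fbln5, which links elastin to cells, had 1.495 ± 0.43, Adamts10, which binds fibrillin, 0.81 ± 0.20, and the proteoglycan gene Bgn 1.19 ± 0.45 (edgeR, adjusted p = 0.409, 0.409 and 0.417). The fibrillin gene Fbn2 lay on the other side of 0, at -3.40 ± 1.32 (edgeR, adjusted p = 0.417), with means of 0.872 ± 0.871 CPM in D-3 IR aortas and 9.21 ± 19.1 in D+1 IR aortas.

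Of 17 genes of latent TGF-β activation tested, 13 had a log2 fold change above 0 in D-3 IR relative to D+1 IR (45.4% of all genes), 4 of them at an unadjusted p under 0.05 (6.71% of all genes were higher) and none lower (4.75% were lower), with a median of 0.20. The 4 were integrin subunits, Itgb3 with 1.34 ± 0.43 (SE), Itgb5 with 1.17 ± 0.38, Itgb1 with 0.80 ± 0.35 and Itgav with 0.71 ± 0.32 (edgeR, adjusted p = 0.409, 0.409, 0.421 and 0.423). Integrins of the αv subunit pull the propeptide open. The activators Thbs1 and Mmp9 lay lowest against control, at -1.22 ± 0.89 and -2.26 ± 0.93 in D-3 IR relative to control and -1.42 ± 0.89 and -1.76 ± 0.92 in D+1 IR relative to control (edgeR, adjusted p = 1, 1, 0.652 and 0.644). Their control means carried wide spreads, of 699 ± 1246 CPM for Thbs1 and 41.5 ± 79.0 CPM for Mmp9.

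Of 12 inhibitors of signaling, 9 had a log2 fold change above 0 in D-3 IR relative to D+1 IR, 3 of them at an unadjusted p under 0.05 and none lower (6.71% of all genes were higher, 4.75% lower and 45.4% above 0), with a median of 0.39. Those 3 were Pmepa1, which keeps SMADs from the receptor, with 0.76 ± 0.27 (SE), the inhibitory SMAD gene Smad6 with 0.85 ± 0.32 and Fkbp1a, which holds the type I receptor inactive, with 0.32 ± 0.14 (edgeR, adjusted p = 0.409, 0.409 and 0.423). The other inhibitory SMAD gene, Smad7, had 0.82 ± 0.41 (edgeR, adjusted p = 0.442). In D+1 IR relative to control Pmepa1 had -0.75 ± 0.29 and Smad6 -1.002 ± 0.34 (edgeR, adjusted p = 0.644 each), and Smurf1 and Tgif2 had 0.15 ± 0.20 and 0.21 ± 0.34 in D-3 IR relative to control (edgeR, adjusted p = 1 each).

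Of 9 SMAD transducer genes tested, 4 had a log2 fold change above 0 in D-3 IR relative to D+1 IR (45.4% of all genes), with a median of -0.02. Smad9, of the bone morphogenetic protein branch, was the only gene of this list at an unadjusted p under 0.05 (11.5% of all genes in D-3 IR relative to D+1 IR and 7.11% in D+1 IR relative to control). It had 1.12 ± 0.44 (SE) in D-3 IR relative to D+1 IR and -1.32 ± 0.47 in D+1 IR relative to control (edgeR, adjusted p = 0.417 and 0.644). Smad2, which the TGF-β receptor phosphorylates, had -0.09 ± 0.14 in D-3 IR relative to D+1 IR, the shared partner Smad4 0.18 ± 0.18 and the anchor protein gene Zfyve9 -0.18 ± 0.16 (edgeR, adjusted p = 0.805, 0.694 and 0.659). Smad1 and Smad5, also of the bone morphogenetic protein branch, had -0.14 ± 0.17 and 0.04 ± 0.10 (edgeR, adjusted p = 0.748 and 0.888).

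Of 11 other receptors, 6 had a log2 fold change above 0 in D-3 IR relative to D+1 IR (45.4% of all genes), with a median of 0.03. None had an unadjusted p under 0.05 in this comparison (11.5% of all genes). The co-receptor gene Tgfbr3, which presents ligand to Tgfbr2, had values like those of Tgfbr2, with -0.34 ± 0.17 (SE) in D-3 IR relative to D+1 IR and 0.48 ± 0.19 in D+1 IR relative to control (edgeR, adjusted p = 0.446 and 0.644). In D-3 IR relative to D+1 IR the type I receptor genes Bmpr1a, Bmpr1b and Acvr1b had 0.55 ± 0.32, 0.87 ± 0.53 and -0.38 ± 0.23 (edgeR, adjusted p = 0.483, 0.496 and 0.489). Acvr1c, a type I receptor gene of fat, had 1.22 ± 0.66 in D+1 IR relative to control, and the endothelial co-receptor gene Eng 0.36 ± 0.21 in D-3 IR relative to control (edgeR, adjusted p = 0.644 and 1).

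Of 24 target genes, 18 had a log2 fold change above 0 in D-3 IR relative to D+1 IR, 5 higher and 1 lower at an unadjusted p under 0.05 (6.71% and 4.75% of all genes, with 45.4% above 0), with a median of 0.37. Postn, a matrix protein gene, had 1.52 ± 0.57 (SE), and the contractile genes Tagln and Cnn1, which are also smooth muscle markers, had 1.15 ± 0.44 and 1.21 ± 0.54 (edgeR, adjusted p = 0.41, 0.417 and 0.423). Junb, an immediate early gene, had -1.01 ± 0.40 (edgeR, adjusted p = 0.417). The transcription inhibitor gene Id3 had 0.61 ± 0.27 in D-3 IR relative to D+1 IR and -0.81 ± 0.30 in D+1 IR relative to control (edgeR, adjusted p = 0.426 and 0.644). Tgfbi had -0.79 ± 0.45 in D-3 IR relative to control (edgeR, adjusted p = 1). Without the D+1 IR libraries 1, 2 and 3 the median in D-3 IR relative to D+1 IR was 0.52 for the matrix list, -0.01 for the activation list, 0.14 for the inhibitors and 0.22 for the targets, with 4, 1, 1 and 0 of their genes higher at an unadjusted p under 0.05 (2.15% of all genes).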

How the data were processed

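By the study's methods, poly(A)-selected RNA of abdominal aortas was sequenced with a stranded kit. In the counts of the 19 libraries, however, second-strand reads made up 49.87% to 50.14%, so they carry no strand information. Per the labels and the study's methods, the authors ran FastQC on the reads and then STAR 2.7.9a, against GRCm38, to align and count them by gene. The deposited files hold raw counts per gene of each library, not normalized, in an unstranded column and 1 column per strand, with reads that map to several places or to overlapping genes left out. The annotation release is not given in the sources used here. All 773262 values of the authors' joined count table equal the unstranded counts, which were used. Symbols came from that table, and positions and exon lengths from GENCODE M21, on which overlaps of exons were also computed. Unassigned reads were left out, and 67.45% to 78.04% of reads lay in genes (25839001 to 97083681 counts). The spread between mice (common biological coefficient of variation 0.591) limits precision more than counting error. No 2 libraries of a group were copies.

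The test came from edgeR 4.0.16 (R 4.3.3), after TMM normalization and its default filter, with a design without intercept, all 3 groups in 1 fit and two-sided quasi-likelihood F-tests, with p-values adjusted by Benjamini-Hochberg over 17617 genes at a threshold of 0.05. CPM are TMM-normalized, and log2 CPM used a prior count of 2. SE was taken from the fold change and its F value. Correlations and the order of levels used 100000 permutations, or exact permutation within a group of 7, and Benjamini-Hochberg over 36 pairs of genes, 135 pairs of a gene with 1 of 15 marker lists and 8 neighbouring pairs. The 2 farthest aortas were those farthest from the median of 1 measure of each pair, so they can differ between pairs. That measure was the marker list or, for 2 genes, the one named earlier in the opening list of the 9 genes. Promoters were matched by symbol in a RefSeq table (GRCm38.p6) for 8 of the 9 genes, all but Tgfb3, taking the start nearest to that of GENCODE, and motifs were searched on both strands.

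Alternatives were DESeq2 1.42.0, voom of limma 3.58.1 (sample quality weights), the newer method of edgeR, other factors and filters, counts of the second strand, fits limited to the groups compared, and fits without each library, without D+1 IR 1, 2 and 3, and without D-3 IR 10 and D+1 IR 3. Fits on the genes of the joined table and voom without those libraries were chosen after seeing the data. The genes named are the 9, in each pathway list the 4 with the smallest p in D-3 IR relative to D+1 IR and the 2 with the smallest p in each comparison with control, and the 3 genes most correlated with each of the 9. The 9 genes, lists and tests were chosen with earlier results of these data known, so no list is independent evidence. Each library is labelled as a separate sample. The RT-qPCR, histology and cytokine experiments were not analysed here.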

Additional observations from a re-analysis of the deposited data

How the results depend on the processing

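No paired analysis was possible because the groups share no replicate number and every library is of another mouse. Over 918 refits of a log2 fold change of the 9 genes, 7 gave an adjusted p under 0.05, all from limma voom in D-3 IR relative to D+1 IR, where it called 4 of the 9 genes with all libraries and 3 without D-3 IR 10 and D+1 IR 3 (edgeR called 0), and 28 gave the other sign. The smallest adjusted p over the refits was 0.919 in D-3 IR relative to control, 0.267 in D+1 IR relative to control and 0.0243 in D-3 IR relative to D+1 IR.

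The other sign came up as follows, and the cause was not tested. In D-3 IR relative to control, Tgfb1 had 0.012 under limma voom and 0.003 under limma voom without D+1 IR 1, 2 and 3. Leaving out 1 library at a time in this comparison gave -0.23 to 0.30 for Tgfb1, -0.022 to 0.415 for Tgfbr1, -0.13 to 0.54 for Ltbp1, -0.076 to 0.445 for Ltbp2 and -0.031 to 0.335 for Ltbp4. In D+1 IR relative to control it gave -0.41 to 0.17 for Tgfb1 and -0.384 to 0.087 for Ltbp4, and for Tgfb1 in D-3 IR relative to D+1 IR it gave -0.026 to 0.341. Without D+1 IR 1, 2 and 3, D+1 IR relative to control gave 0.14 for Tgfb3 and 0.23 for Ltbp4, and D-3 IR relative to D+1 IR gave -0.023 for Tgfb1 and -0.10 for Ltbp4. Under limma voom without these 3, D+1 IR relative to control gave 0.27 for Tgfb2, 0.085 for Tgfb3, 0.36 for Tgfbr1 and 0.36 for Ltbp4. Without D-3 IR 10 and D+1 IR 3, Ltbp4 in D+1 IR relative to control gave 0.033 (0.187 under limma voom) and Tgfb1 in D-3 IR relative to D+1 IR gave -0.039.

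Of the 9 genes 5 kept their rank in level per length without D+1 IR 1, 2 and 3, and 5 with the longest transcript as the length. Of 36 pairs of genes, 18 correlations passed over 19 libraries, 11 without the 2 farthest, 8 without D+1 IR 1, 2 and 3 and 9 within D-3 IR. Of 135 pairs with a marker list, 16 passed over 19 libraries, 0 within D-3 IR and 2 within D+1 IR, where each has 7 aortas. A further limit is that the day of collection of the sequenced aortas is not stated. Reads where genes overlap on opposite strands are also missing from the counts, while levels per length divide by all exon bases. This touches Tgfb3 and Ltbp2 most.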
